A study of Mus musculus with 6 samples.

Results

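Chemokines and their receptors were followed as a fixed family of 35 genes in mucosa from the terminal ileum, where the small intestine ends. The genes were chosen by name, with earlier results of these data known. Each was read through 1 probe set annotated with that symbol alone, where there were several the one whose mean over the 6 pools was highest. Of the 35 genes 34 were measured this way, out of 18193 genes measured in all. The chemokine Ccl19 had no such probe set and is not analysed here. The animals were 3-month-old female mice of the 129S6 strain. Wild-type mice were set against their Duoxa-/- littermates, which lack the maturation factors that the dual oxidases need to leave the endoplasmic reticulum, and both genotypes of a litter shared 1 cage. RNA of 2 to 3 animals of a genotype was pooled within each of 3 cages, so that each cage gave 1 wild-type and 1 Duoxa-/- pool and each pool was hybridised to 1 array. The single animals behind a pool cannot be separated, and p values measure the spread between these pools.

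Chemokines are small secreted or membrane-held proteins that draw leukocytes along a gradient, and each acts through G protein-coupled receptors on the cells it attracts. In the small intestine the epithelium makes CCL25, which guides CCR9-bearing T cells and IgA plasma cells to the mucosa, and the epithelium over lymphoid follicles makes CCL20, which attracts CCR6-bearing B cells and dendritic cells. Macrophages, dendritic cells and lymphocytes make most of the inflammatory chemokines, interferon gamma induces CXCL9 and CXCL10, and stromal cells make CXCL12 and, in follicles, CXCL13. The comparison sets chemokines made mainly by epithelium against those made mainly by leukocytes, between genotypes that shared their cages.

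Values are on the log2 scale, on which 1 unit is a 2-fold difference, and differences are Duoxa-/- minus wild type. The epithelial gene Epcam read 14.3 to 14.4 over the 6 pools, and the ileal bile acid genes Fabp6 and Slc10a2 read 14.6 to 14.8 and 12.2 to 12.5, so the labelled tissue carried its defining markers. Duoxa2, a targeted gene, read 8.81, 8.36 and 7.24 in the wild-type pools of cages 1, 2 and 3 and 5.90, 5.55 and 5.92 in the Duoxa-/- pools. Duoxa1 and Duox1, both below the median of all probe sets, differed by -0.15 and 0.09 with overlapping pools, so 1 of the 3 measured genes of the locus separated the genotypes. Whether the Duoxa2 probe set lies in the deleted part is unknown. Duox2 was not analysed here. In the test of genotype across all genes 0 of 18193 genes passed at an adjusted p under 0.05 in either direction, with limma and Benjamini-Hochberg adjustment, and 1006 had an unadjusted p under 0.05. In bulk mucosa fewer cells of a type and less RNA per cell cannot be told apart.

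No member of the family passed the test of genotype. With limma, 0 of 34 members had an adjusted p under 0.05 in either direction, against 0% of all genes, and the smallest adjusted p among members was 0.811. At an unadjusted p under 0.05 stood 2 members in either direction, against 5.53% of all genes. In the higher direction this was 1 member, Ccl20, against 1.87% of all genes. In the lower direction it was 1 as well, Cxcr3, against 3.66% of all genes. The pools of the genotypes did not overlap for 2 members that were higher in Duoxa-/- mice, Ccl20 and Ccl7, against 5.08% of all genes, and for 1 member that was lower, Cxcr3, against 6.46%. These counts lie near the background.

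More members were higher than lower in Duoxa-/- pools, mostly in cage 1. The median difference over the 34 members was 0.10, beside -0.01 over all genes, and 24 of 34 members had a difference above 0, against 46.1% of all genes. Counted cage by cage, 30, 19 and 12 of 34 members were higher in the Duoxa-/- pools of cages 1, 2 and 3. Of all 18193 genes, 9194, 7685 and 9099 were higher in these pools. Cages 1, 2 and 3 gave the members median differences of 0.24, 0.03 and -0.06. Without cage 1, 15 of 34 members had a difference above 0, against 44% of all genes, and the median was -0.02. The wild-type pool of cage 1 was the lowest of the 6 pools for 15 of 34 members, against 26.8% of all genes. Leaving out this pool alone left 22 of 34 members with a difference above 0, against 44.4% of all genes. The median was then 0.03, beside -0.02 over all genes. The SD between the 3 cage differences of a gene had a median of 0.31 over the members and of 0.15 over all genes. In every cage 8 members had the higher value in the Duoxa-/- pool, against 13.5% of all genes, namely Ccl20, Ccl7, Ccr1, Ccr2, Cxcl12, Cxcl16, Cxcl5 and Cxcr5. The 3 members that were lower in all 3 cages, against 16.6% of all genes, were Ccl9, Cx3cl1 and Cxcr3. Other probe sets of Ccr1, Ccr2, Cxcl12, Cxcl16, Ccl9 and Cx3cl1 had the opposite sign in at least 1 cage, while Ccl20, Ccl7, Cxcl5, Cxcr5 and Cxcr3 had 1 probe set each.

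**Figure D1:**
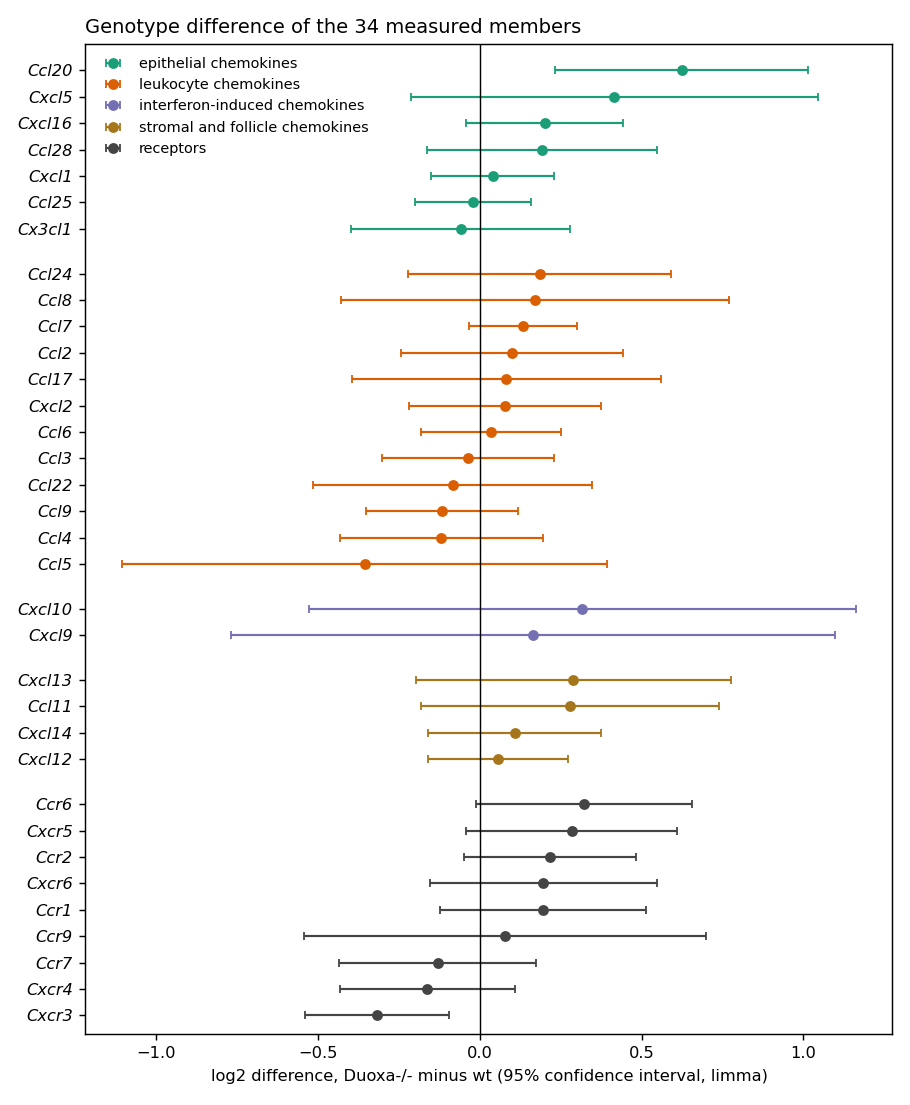
Log2 difference of each of the 34 measured chemokine and receptor genes, Duoxa-/- minus wild type, with its 95% confidence interval from limma over 3 pools per genotype, arranged by role. Only the intervals of Ccl20, at 0.62, and Cxcr3, at -0.32, leave out 0, and neither gene passed adjustment over all genes.

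Among the epithelial chemokines Ccl20 differed most. It read 7.76, 8.07 and 7.89 in the wild-type pools of cages 1, 2 and 3 and 8.90, 8.49 and 8.20 in the Duoxa-/- pools. All Duoxa-/- pools lay above all wild-type pools, and the gap within a cage was widest in cage 1, at 1.14, and narrower in cages 2 and 3, at 0.42 and 0.31. The mean difference was 0.62 (SE 0.17, 95% interval 0.23 to 1.01), or 1.54-fold, from 7.91 ± 0.16 in wild-type pools (SD, n = 3) to 8.53 ± 0.35 in Duoxa-/- pools (SD, n = 3). With limma its unadjusted p was 0.00612 and its adjusted p 0.811. Ccl20 was the only member whose mean difference reached 1.5-fold, and it had 1 probe set. Leaving out a pool or a cage moved its difference between 0.36 and 0.79.

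The other epithelial chemokines had overlapping groups on the probe sets used. Ccl25, the homing signal of the small intestine, read 12.84, 12.90 and 12.94 in wild-type pools and 12.84, 12.81 and 12.95 in Duoxa-/- pools. The groups overlapped throughout, and the difference was -0.02 with an interval of -0.20 to 0.16. A dimmer probe set of Ccl25 was lower in the Duoxa-/- pool of each cage, by 0.35, 0.11 and 0.11, and averaging the probe sets gave -0.10. Ccl28, which draws IgA plasma cells through CCR10, read 10.48, 11.09 and 10.71 in wild-type pools and 11.07, 10.99 and 10.79 in Duoxa-/- pools. Its low point was the wild-type pool of cage 1, the cage differences were 0.60, -0.10 and 0.08, and the mean difference was 0.19 (SE 0.15, limma adjusted p 0.819). The other probe sets of Ccl28 gave mean differences of 0.30 and 0.31 and were higher in every cage. In cage 2 they were higher by 0.33 and 0.27, so the sign in cage 2 depends on the probe set. On the probe set at 0.30 the groups did not overlap, at 8.63 to 9.05 in wild-type and 9.09 to 9.33 in Duoxa-/- pools. Cxcl16, a membrane-held ligand of CXCR6, read 8.49, 8.55 and 8.79 in wild-type pools and 8.68, 8.91 and 8.85 in Duoxa-/- pools. It was higher by 0.19, 0.36 and 0.06 in cages 1, 2 and 3, with a mean difference of 0.20 (SE 0.11, limma adjusted p 0.811) beside an SD of 0.16 in wild-type and 0.12 in Duoxa-/- pools (n = 3 each).

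Cx3cl1, the membrane-held ligand of the macrophage receptor CX3CR1, differed by -0.06 (SE 0.15), and its cages lay farther apart than its genotypes. Cxcl1 and Cxcl5 attract neutrophils through CXCR2. The Cxcl1 probe set with the highest mean read 8.08, 8.12 and 8.17 in wild-type pools and 8.13, 8.28 and 8.08 in Duoxa-/- pools, a difference of 0.04 (SE 0.08). The other probe sets of Cxcl1 gave differences of 0.43 and 0.50, with cage 1 differences of 0.78 and 1.16, so the reading of Cxcl1 depends on the probe set, and the one used may also read other transcripts. Cxcl5 read 4.26, 4.55 and 4.33 in wild-type pools and 4.52, 5.52 and 4.34 in Duoxa-/- pools, all below 6.58, the median of all probe sets. The Duoxa-/- pool of cage 2 stood alone at the top, and the mean difference was 0.42 (SE 0.27, limma adjusted p 0.815). In that pool the neutrophil genes S100a8 and S100a9 were also highest, at 6.86 and 6.48, against 5.31 to 5.78 and 4.94 to 5.30 in the other 5. The remaining 4 measured neutrophil markers did not follow, with cage 2 differences of 0.01 for Mpo, -0.13 for Csf3r, 0.02 for Mmp8 and -0.20 for Ngp. All 6 measured neutrophil markers of 8 listed lay below 6.58 on average. The mean of the neutrophil list ran from 5.25 to 5.31 in wild-type and from 5.33 to 5.68 in Duoxa-/- pools, its median difference was -0.02 with 3 markers above 0 and 3 below, and its part in the value of Cxcl5 was not tested.

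**Figure D2:**
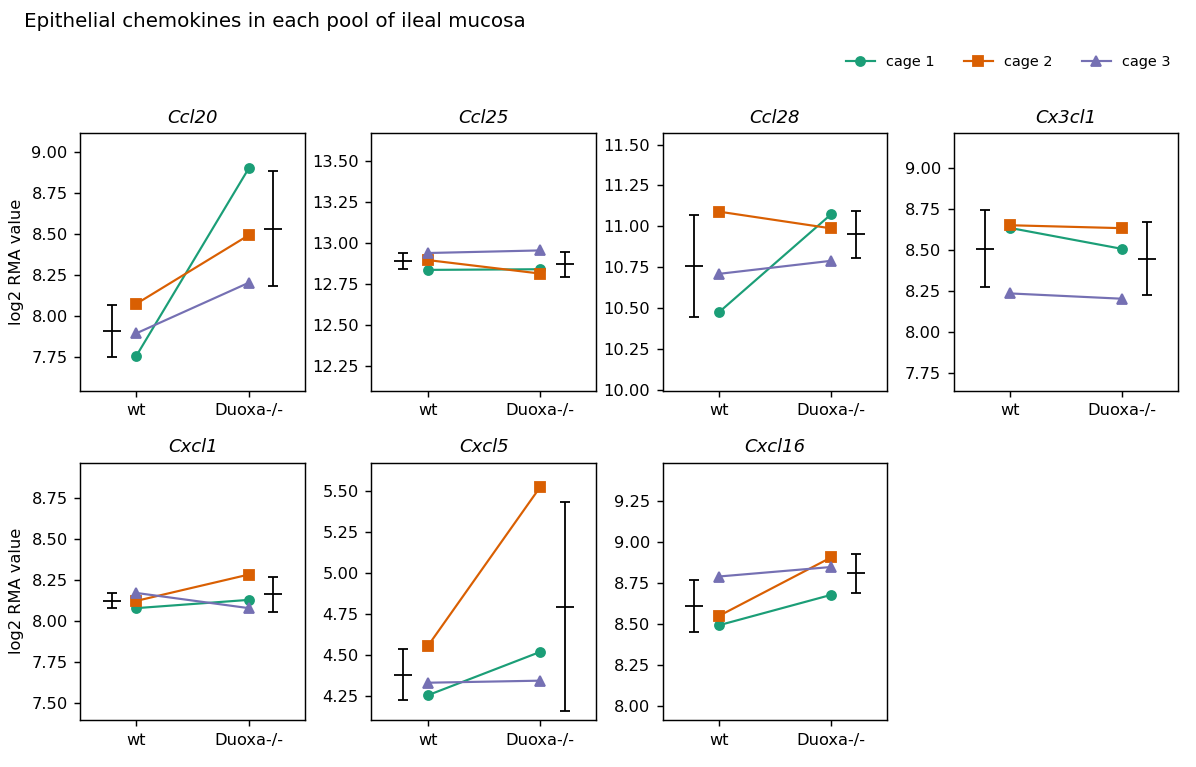
Log2 value of the 7 epithelial chemokine genes in each of the 6 pools, by genotype, with a line joining the 2 pools of a cage and a black bar for the mean ± SD of 3 pools. Of the probe sets drawn, that of Ccl20 alone has all Duoxa-/- pools (8.20 to 8.90) above all wild-type pools (7.76 to 8.07). The pools of Ccl25 stay between 12.81 and 12.95.

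The promoters of Ccl20 and Cxcl1 are shown because both hold a match to the kappaB motif, the binding sequence of the NF-kappaB factors. The windows are the 250 bases before the gene start in RefSeq, build GRCm38.p6, printed 5′ to 3′ on the strand of the gene, with motif matches in capitals.
Ccl20, chr1:83116516-83116765, plus strand: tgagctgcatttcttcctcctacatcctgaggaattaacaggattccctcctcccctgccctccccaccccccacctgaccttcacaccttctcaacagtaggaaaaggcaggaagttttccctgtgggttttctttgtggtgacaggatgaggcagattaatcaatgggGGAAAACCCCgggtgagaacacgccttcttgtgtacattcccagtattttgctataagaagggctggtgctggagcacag
Cxcl1, chr5:90890995-90891244, plus strand: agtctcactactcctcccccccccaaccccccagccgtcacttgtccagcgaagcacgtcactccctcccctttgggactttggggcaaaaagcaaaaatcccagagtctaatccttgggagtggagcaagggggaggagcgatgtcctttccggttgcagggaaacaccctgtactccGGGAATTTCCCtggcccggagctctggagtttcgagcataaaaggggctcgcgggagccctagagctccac
The Ccl20 match lies at positions -80 to -71 and the Cxcl1 matches, 2 that overlap, at -71 to -61, counted back from the gene start. The search on both strands covered the kappaB consensus, the interferon-stimulated response element (ISRE), which is TTTC, any 2 bases and TTTC, the interferon gamma-activated site (GAS) TTCNNNGAA and the AP-1 site TGANTCA. The kappaB motif was found in 3.9% of 32851 promoter windows and in 6 of the 27 windows of the family, those of Ccl20, Cxcl1, Cxcl2, Cxcl10, Ccl9 and Ccr6. RefSeq windows were given for 25 of the 35 members. A match is a stretch of letters and not a measured binding site.

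The chemokines made mainly by leukocytes showed no common direction. Of 12 genes, 7 had a difference above 0, the median was 0.06, and the cage medians were 0.18, 0.06 and -0.13. Without the 5 of these genes below 6.58 the median was -0.08. The 7 epithelial chemokines had a median of 0.19, with cage medians of 0.19, 0.16 and 0.02 and 5 genes above 0. The epithelial median exceeded the leukocyte median by 0.14 over the arrays and by 0.0096, 0.10 and 0.15 in cages 1, 2 and 3. Leaving out pools or cages moved this gap between 0.023 and 0.18, and it carries no test. With only the 4 epithelial and 6 leukocyte genes whose main source is less shared, the medians were 0.09 and -0.06.

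Ccl5, which CD8 T cells and intraepithelial lymphocytes make in quantity, had the widest spread of the leukocyte group. It read 11.45, 12.82 and 12.25 in wild-type pools and 12.24, 11.49 and 11.71 in Duoxa-/- pools. The Duoxa-/- pool was higher by 0.80 in cage 1 and lower by 1.33 and 0.54 in cages 2 and 3, so the groups overlapped fully and the mean difference of -0.36 had an interval of -1.11 to 0.39. The mean of the cytotoxic intraepithelial lymphocyte markers had the same signs in each cage. Counted singly, 5, 0 and 1 markers were higher in the Duoxa-/- pools of cages 1, 2 and 3, against 9194, 7685 and 9099 of all 18193 genes. All 5 listed markers were measured, and their mean ran from 8.33 to 9.49 in wild-type pools and from 8.44 to 9.10 in Duoxa-/- pools. Their mean difference was 0.77, -1.01 and -0.47 in cages 1, 2 and 3, with Gzmb, the protease granzyme B, at 8.78, 10.73 and 9.72 in wild-type and 10.15, 9.28 and 8.77 in Duoxa-/- pools. The part of these cells in the values of Ccl5 was not tested.

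Ccl4 and Ccl3 are inflammatory chemokines of activated macrophages and T cells. Ccl4 read 6.80, 6.81 and 6.82 in wild-type pools and 7.02, 6.45 and 6.60 in Duoxa-/- pools. Its wild-type pools lay close together inside the range of the Duoxa-/- pools, and the mean difference was -0.12 (SE 0.14, limma adjusted p 0.856). Ccl3 read 4.73 to 5.12 in wild-type and 4.75 to 4.93 in Duoxa-/- pools, below the median of all probe sets, with a difference of -0.04 (SE 0.12).

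The monocyte attractants Ccl2, Ccl7 and Ccl8 act largely through CCR2, except that mouse CCL8 acts through CCR8. Ccl7 read 5.29, 5.31 and 5.35 in wild-type pools and 5.43, 5.51 and 5.40 in Duoxa-/- pools. Its groups did not overlap, but the difference was 0.13 (SE 0.07, 95% interval -0.03 to 0.30) on values below the median of all probe sets. Ccl2 differed by 0.10 (SE 0.15) and Ccl8 by 0.17 (SE 0.26), with overlapping groups. Ccl6 and Ccl9 are ligands of CCR1 made by myeloid cells. Ccl6 differed by 0.03 (SE 0.09), and Ccl9 read 8.77, 8.57 and 8.44 in wild-type and 8.48, 8.56 and 8.39 in Duoxa-/- pools, a difference of -0.12 (SE 0.10) that came mainly from cage 1, at -0.29.

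Ccl17 and Ccl22, the ligands of CCR4 made by dendritic cells, differed by 0.08 (SE 0.21) and -0.08 (SE 0.19). Ccl22 read 6.64, 7.27 and 6.73 in wild-type pools and 7.01, 6.89 and 6.49 in Duoxa-/- pools. The Duoxa-/- pool was the higher in cage 1 and the lower in the other cages. Ccl24, an eosinophil attractant of macrophages, read 6.72, 6.07 and 6.32 in wild-type and 6.49, 6.81 and 6.36 in Duoxa-/- pools, with cage differences of -0.23, 0.75 and 0.04. Cxcl2, a neutrophil attractant, differed by 0.08 (SE 0.13) at values below the median of all probe sets.

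The interferon-induced chemokines Cxcl9 and Cxcl10, ligands of CXCR3, had opposite genotype differences in different cages. Cxcl9 read 8.28, 9.95 and 9.20 in wild-type pools and 9.85, 9.30 and 8.78 in Duoxa-/- pools. The lowest and the highest value were both wild-type pools, those of cages 1 and 2, so the groups overlapped fully. The cage differences were 1.57, -0.65 and -0.42, and their mean of 0.16 had an interval of -0.77 to 1.10 (limma adjusted p 0.934). Cxcl10 read 7.41, 8.90 and 8.16 in wild-type pools and 8.99, 8.41 and 8.02 in Duoxa-/- pools. It had the same low pool, the wild-type pool of cage 1, with cage differences of 1.59, -0.50 and -0.14 and a mean of 0.32 (SE 0.37, limma adjusted p 0.856). Ifng, the interferon that induces both genes, read 4.41, 5.38 and 4.87 in wild-type and 5.14, 5.17 and 4.46 in Duoxa-/- pools, below the median of all probe sets.

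The promoters of Cxcl9 and Cxcl10, neighbours in the genome, are shown because the genes had like cage differences while the searched motifs differed between their windows. The windows and the capitals are as for Ccl20.
Cxcl10, chr5:92348890-92349139, minus strand: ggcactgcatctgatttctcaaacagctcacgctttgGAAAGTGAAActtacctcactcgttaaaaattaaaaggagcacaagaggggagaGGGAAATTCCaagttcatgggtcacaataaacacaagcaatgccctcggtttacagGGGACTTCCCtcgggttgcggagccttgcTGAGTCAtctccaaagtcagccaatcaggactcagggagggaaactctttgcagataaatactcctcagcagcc
Cxcl9, chr5:92328080-92328329, minus strand: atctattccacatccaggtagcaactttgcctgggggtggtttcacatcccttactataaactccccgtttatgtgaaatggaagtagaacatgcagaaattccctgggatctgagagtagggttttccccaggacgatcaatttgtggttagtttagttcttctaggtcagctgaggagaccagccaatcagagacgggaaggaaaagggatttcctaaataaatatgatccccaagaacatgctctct
The Cxcl10 window holds an ISRE match at -213 to -204, kappaB matches at -159 to -150 and -103 to -94 and an AP-1 match at -74 to -68, and none of these overlap. The Cxcl9 window holds no match to the searched letters, which says nothing of sites elsewhere or of other spelling. The ISRE letters were found in 2.98% of all promoter windows and in 3 of the 27 member windows, and the AP-1 letters in 6.75% and in 2. The GAS letters were found in 7.02% of all windows and in 3 of the members.

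A term for the genotype difference of cage 1 against that of cages 2 and 3 was fitted across all genes after these values had been seen. With limma 0 members and 0% of all genes passed at an adjusted p under 0.05, and 14 of 34 members had an unadjusted p under 0.05 against 10.3% of all genes. For all 14 the difference was higher in cage 1, against 5.4% of all genes. Cage 1 gave 1 pool per genotype, so the SE and p of this term rest on the spread in cages 2 and 3 and on limma's pooling over genes, and the lone pair is assumed to vary like the others. The term was 2.10 for Cxcl9 (SE 0.18, adjusted p 0.104) and 1.90 for Cxcl10 (SE 0.20, adjusted p 0.114). It was 1.73 for Ccl5 (SE 0.32, adjusted p 0.197), 1.23 for Ccr9 (SE 0.18, adjusted p 0.169), 0.99 for Cxcl13 (SE 0.16, adjusted p 0.169) and 0.78 for Ccl20 (SE 0.17, adjusted p 0.239). In all, 9 members were higher in the Duoxa-/- pool of cage 1 and lower in those of cages 2 and 3, against 13.7% of all genes. They were Ccl4, Ccl5, Ccl22, Cxcl9, Cxcl10, Cxcl13, Ccr7, Ccr9 and Cxcr4. For Cxcl13 this rests on values of -0.06 and -0.02 in cages 2 and 3, and its other probe set was higher by 0.50 in cage 2. Of the 5 probe sets of Ccr9, 1 was higher by 0.02 in cage 2 and another by 0.0063 in cage 3. A further probe set differed by only -0.014 and -0.012 in cages 2 and 3.

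**Figure D3:**
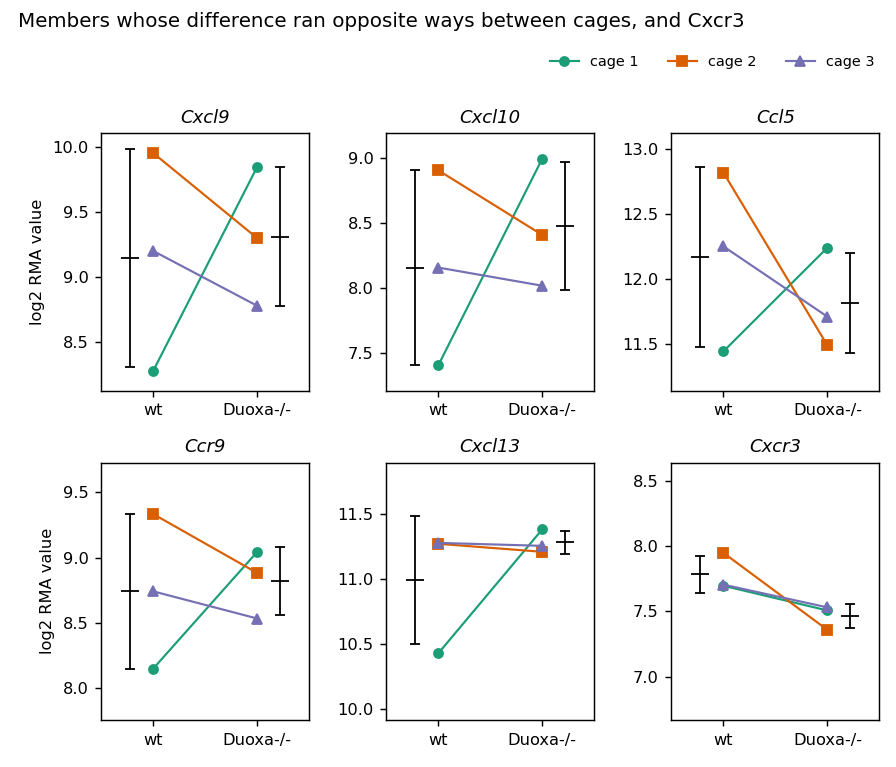
Log2 value of Cxcl9, Cxcl10, Ccl5, Ccr9, Cxcl13 and Cxcr3 in each of the 6 pools, by genotype, with a line joining the pools of a cage and a black bar for the mean ± SD of 3 pools. The line of cage 1 runs upward from wild type to Duoxa-/- for the first 5 genes, by 1.57 for Cxcl9, while Cxcr3 is lower in the Duoxa-/- pool of every cage.

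The mean of the T cell markers was also higher in the Duoxa-/- pool of cage 1 and lower in those of cages 2 and 3. Counted singly, 7, 1 and 2 measured markers were higher in the Duoxa-/- pools of cages 1, 2 and 3. Among all 18193 genes these counts were 9194, 7685 and 9099. The mean of 9 measured T cell markers of 11 listed ran from 7.32 to 7.88 in wild-type and from 7.39 to 7.74 in Duoxa-/- pools, with cage differences of 0.43, -0.49 and -0.19. Smooth muscle markers ran the other way in cage 1. All 7 listed were measured, their mean ran from 11.56 to 12.21 in wild-type and from 11.35 to 11.79 in Duoxa-/- pools, and the cage differences were -0.85, 0.23 and -0.20. The epithelial marker list stayed between 13.25 and 13.31 in all pools, with all 9 markers measured. The part of the cell makeup in the chemokine values was not tested.

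Among stromal and follicle chemokines all 4 measured genes had a difference above 0, with a median of 0.19 and cage medians of 0.23, 0.02 and -0.05. Cxcl13, the follicle signal for CXCR5-bearing B cells, read 10.43, 11.27 and 11.28 in wild-type pools and 11.38, 11.21 and 11.25 in Duoxa-/- pools. The wild-type pool of cage 1 lay apart below the other 5, and the difference was 0.29 (SE 0.21, limma adjusted p 0.817). The 9 measured B cell and follicle markers of 10 listed had a mean difference of 0.42 in cage 1, beside 0.0015 in cage 2 and -0.07 in cage 3, over a range of 8.15 to 8.43 in wild-type and 8.36 to 8.57 in Duoxa-/- pools. Their part in the value of Cxcl13 was not tested. Ccl11, the eosinophil attractant eotaxin, read 8.76, 8.75 and 8.84 in wild-type and 8.82, 9.60 and 8.76 in Duoxa-/- pools. Only the Duoxa-/- pool of cage 2 stood out, and the difference was 0.28 (SE 0.20, limma adjusted p 0.815). Cxcl12, which holds CXCR4-bearing cells in place, differed by 0.06 (95% interval -0.16 to 0.27). Cxcl14, a chemokine of epithelium and stroma, differed by 0.11 (SE 0.12). Dimmer probe sets gave mean differences of -0.095 and -0.022 for Cxcl12 and of -0.11 for Cxcl14. The sign of both genes thus depends on the probe set.

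The receptors had a median difference of 0.20, with 6 of 9 above 0 and cage medians of 0.26, 0.03 and -0.07. Cxcr3, the receptor of activated T cells for CXCL9 and CXCL10, read 7.70, 7.95 and 7.70 in wild-type pools and 7.51, 7.36 and 7.53 in Duoxa-/- pools. It was lower in the Duoxa-/- pool of each cage, by 0.19, 0.59 and 0.17, and the groups did not overlap. The mean difference was -0.32 (SE 0.10, 95% interval -0.54 to -0.09), 1.25-fold lower, with a limma unadjusted p of 0.0111 and adjusted p of 0.811. Leaving out a pool or a cage moved it between -0.39 and -0.18. Its ligand Cxcl9 was higher in cage 1 by 1.57, where Cxcr3 was lower by 0.19.

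Ccr6, the receptor for CCL20 on B cells, dendritic cells and lymphoid cells, read 8.71, 8.92 and 9.33 in wild-type pools and 9.28, 9.33 and 9.31 in Duoxa-/- pools. The Duoxa-/- pools lay within 0.05 of each other near the highest wild-type pool, and the difference was 0.32 (SE 0.15, 95% interval -0.01 to 0.66). Set beside its ligand, Ccr6 differed by 0.57, 0.41 and -0.02 in cages 1, 2 and 3 where Ccl20 differed by 1.14, 0.42 and 0.31. Cxcr5, the B cell receptor for CXCL13, read 5.97, 6.50 and 6.39 in wild-type and 6.71, 6.54 and 6.46 in Duoxa-/- pools. It was higher by 0.74 in cage 1 and by 0.04 and 0.08 in the others, where Cxcl13 differed by 0.95, -0.06 and -0.02.

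Ccr9, the gut homing receptor for CCL25, read 8.15, 9.33 and 8.74 in wild-type pools and 9.04, 8.88 and 8.53 in Duoxa-/- pools. The genotypes overlapped fully, and the mean difference of 0.08 (SE 0.27) joined cage differences of 0.90, -0.45 and -0.21. The Ccl25 probe set used differed by no more than 0.08 in any cage. The 5 probe sets of Ccr9 gave mean differences from -0.02 to 0.25, and the one used may also read other transcripts. Cxcr6, the receptor of tissue-resident T cells for CXCL16, read 7.26, 7.81 and 7.86 in wild-type and 7.88, 7.84 and 7.79 in Duoxa-/- pools. Only the wild-type pool of cage 1 lay apart, and the difference was 0.20 (SE 0.15), while its other probe set gave cage differences of 0.80, -0.50 and 0.09.

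Ccr1, a receptor of myeloid cells for CCL3, CCL5, CCL6 and CCL9, read 7.07, 7.40 and 6.99 in wild-type pools and 7.33, 7.56 and 7.16 in Duoxa-/- pools. It was higher in the Duoxa-/- pool of each cage by a like amount, 0.26, 0.16 and 0.17, while the groups overlapped because the cages differed. Its mean difference was 0.20 (SE 0.14, 95% interval -0.12 to 0.51). Ccr2, the monocyte receptor, was higher by 0.17, 0.03 and 0.45 in the cages with a mean of 0.22 (SE 0.12). Its 4 probe sets ran from -0.11 to 0.22, and all 4 lay below the median of all probe sets. Ccr7, which brings dendritic and T cells to lymph nodes, differed by -0.13 (SE 0.13), and Cxcr4, the receptor for CXCL12, by -0.16 (SE 0.12).

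Cage was taken into the fit because cages were litters. With cage as a replicate block 0 members passed at an adjusted p under 0.05, against 0% of all genes, and the smallest limma adjusted p was 0.741. At an unadjusted p under 0.05 the blocked fit placed Ccl20, Ccr6 and Cxcl5 higher, 3 of 34 against 2.18% of all genes, and Cxcr3 lower, 1 of 34 against 4.23%. The difference of each member is the same in both fits.

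**Figure D4:**
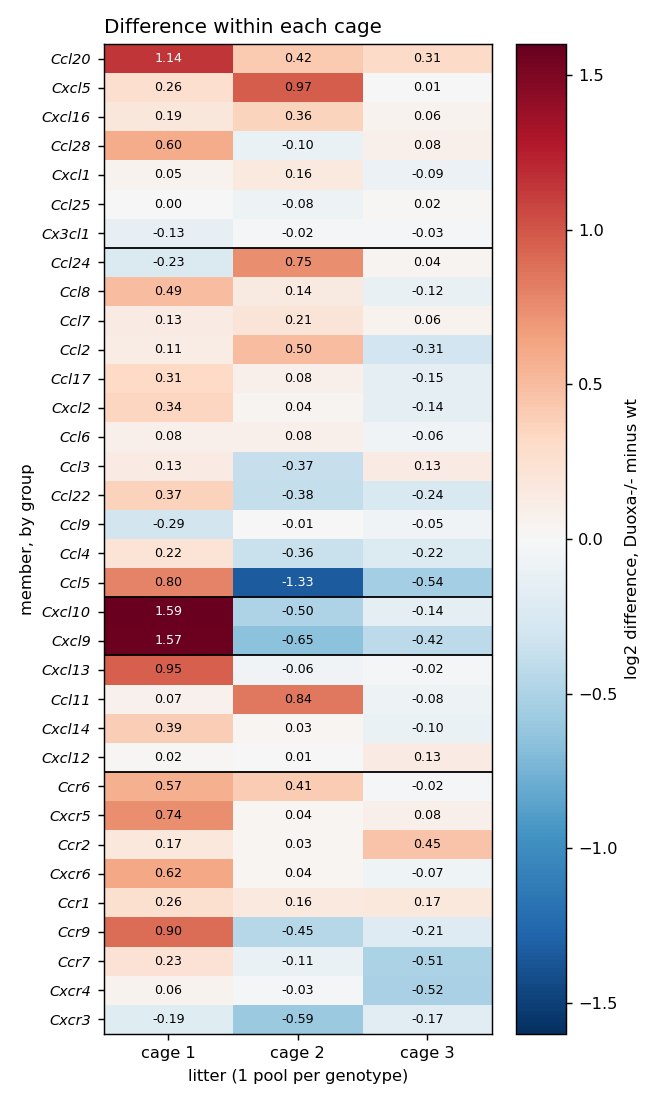
Log2 difference, Duoxa-/- minus wild type, of each of the 34 measured members within each of the 3 cages, arranged by role and coloured by sign and size. Of the 34 genes, 30 are above 0 in cage 1, 19 in cage 2 and 12 in cage 3. The counts over all 18193 genes are 9194, 7685 and 9099.

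No member passed the test between cages. With limma's F-test of the cage terms 0 of 34 members passed at an adjusted p under 0.05, against 0.011% of all genes, and 5 of 34 had an unadjusted p under 0.05 against 6.21%. The 2 genes that passed, named after their values were seen, were an immunoglobulin kappa variable gene segment and Nebl, a muscle and cytoskeleton protein. Ccl8 had the smallest p among members, with an adjusted p of 0.458. It read 8.96, 9.69 and 9.02 in wild-type pools and 9.45, 9.83 and 8.90 in Duoxa-/- pools. Both pools of cage 2 lay above the pools of the other cages, with cage means of 9.20, 9.76 and 8.96. Ccl17 had the same order, with cage means of 7.05, 7.39 and 6.75, and Ccr1 likewise, with 7.20, 7.48 and 7.08. Cx3cl1 read 8.64, 8.65 and 8.24 in wild-type pools and 8.51, 8.63 and 8.20 in Duoxa-/- pools, so that both pools of cage 3 were the lowest. Macrophage markers had a mean of 9.01 to 9.36 in wild-type and 8.93 to 9.25 in Duoxa-/- pools, with 11 of 12 measured and both pools of cage 3 lowest. Their part in these values was not tested.

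**Figure D5:**
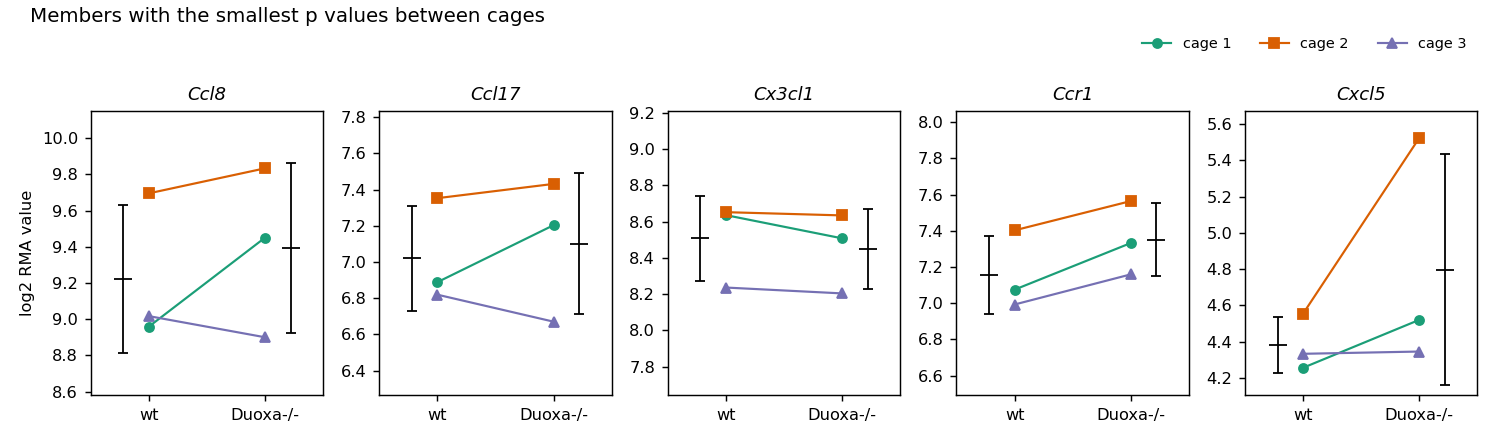
Log2 value of Ccl8, Ccl17, Cx3cl1, Ccr1 and Cxcl5, the members with an unadjusted p under 0.05 between cages, in each of the 6 pools, by genotype, with a line joining the pools of a cage and a black bar for the mean ± SD of 3 pools. The cage 2 line of Ccl8 lies at 9.69 and 9.83, above the lines of cages 1 and 3.

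Of the 15 ligand and receptor pairs listed 14 were measured on both sides. Ligand and receptor differed in the same direction in all 3 cages for 1 pair, Ccl7 and Ccr2. They did so in 2 cages for 8 pairs, in 1 cage for 4 and in no cage for 1, Ccl9 and Ccr1. Ccl7 and Ccr2 both lay below the median of all probe sets. Another probe set of Ccr2 differed by -0.19, -0.13 and -0.0048 in cages 1, 2 and 3. The counts carry no test, and Ccr1, Ccr2 and Cxcr3 each enter more than 1 pair. The epithelial ligand Ccl28 differed by 0.60, -0.10 and 0.08 in cages 1, 2 and 3, and its receptor Ccr10 by 0.44, -0.12 and -0.01, with the cage 2 value of Ccl28 holding for 1 of its 3 probe sets. Cxcl16 differed by 0.19, 0.36 and 0.06 and Cxcr6 by 0.62, 0.04 and -0.07. Ligand and receptor were read on the same arrays, so a pool that stands apart enters both.

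Outside the 35 genes the pathway gave 0 genes that passed the adjusted test. Of 12 other chemokines 10 were measured, 4 with a difference above 0 and a median of -0.07. The 3 with the smallest p all had an unadjusted p under 0.05, against 1.87% of all genes in the higher direction. Pf4, the platelet factor CXCL4, read 8.12, 8.09 and 8.11 in wild-type and 8.35, 8.44 and 8.34 in Duoxa-/- pools, a difference of 0.27 (SE 0.07, limma adjusted p 0.811). Its groups did not overlap, and the gap was like in all cages. Cxcl11, the remaining ligand of CXCR3, read 8.07, 8.39 and 8.36 in wild-type and 8.84, 9.05 and 8.33 in Duoxa-/- pools. Its difference was 0.47 (SE 0.18). Ccl12, a monocyte attractant, differed by 0.40 (SE 0.17) at values below the median of all probe sets. Unlike Cxcl9 and Cxcl10, Cxcl11 was higher in the Duoxa-/- pool of cage 2, by 0.66, a contrast that was not tested.

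Of 9 other chemokine receptors 7 were measured, 4 above 0, with a median of 0.07 and Xcr1, a dendritic cell receptor, at 0.23 (SE 0.12). The values of Xcr1 lay below the median of all probe sets. All 5 atypical receptors, which bind chemokines without G protein signalling, were measured with differences above 0, against 46.1% of all genes. The differences ran from 0.0078 to 0.21 with a median of 0.09, and 0 of the 5 were higher in all 3 cages. Of 20 receptor signalling genes 19 were measured, 4 above 0, with a median of -0.09 and Rac1, a GTPase of cell movement, at -0.20 (SE 0.10). Of 16 inducers of chemokine genes 14 were measured, 10 above 0, with a median of 0.08. The cytokine Il1b, an inducer of Ccl20, read 6.23, 6.67 and 6.59 in wild-type and 6.97, 7.22 and 6.86 in Duoxa-/- pools. Its groups did not overlap, and the difference was 0.52 (SE 0.14, limma unadjusted p 0.00538, adjusted p 0.811). Tnfsf11, the cytokine RANKL that acts on follicle-associated epithelium, differed by 0.37 (SE 0.13), with a mean level below the median of all probe sets. Ltb, lymphotoxin beta, differed by 0.33 (SE 0.15), and neither gene passed adjustment.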

How the data were processed

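RNA of ileal mucosa was extracted, labelled by in vitro transcription and hybridised to Affymetrix mouse arrays, per the labels' protocols. Per the submitters' processing notes the authors used RMA and the affy package, and the deposited values are log2 probe set summaries, with versions not given in the sources used here. RMA corrects background and equalises arrays, which compresses dim probe sets and forces like distributions. Detection calls were not used here, and a level below 6.58, the median of all 45037 probe sets, was called dim, which applies to 8 of 34 members. The dim members were Ccl2, Ccl3, Ccl7, Ccl24, Cxcl2, Cxcl5, Ccr2 and Cxcr5. The arrays had medians of 6.55 to 6.60 and correlated across genes with r of 0.9935 to 0.9980.

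Probe sets with 1 gene symbol in the platform annotation (34945) were used and 9160 unnamed ones and 932 with several symbols left out. Each of 18193 genes was read through its probe set with the highest mean. The members had 59 probe sets, and 15 members had several, of which 6 gave differences of mixed sign. Genotypes were compared with limma 3.58.1 in R 4.3.3 on all genes without a cage term (two-sided, Benjamini-Hochberg adjusted p under 0.05), and cages with a moderated F-test that kept genotype as a term. Scripts used Python 3.11.15, pandas 2.3.3 and matplotlib 3.10.9, and the fits were tested on simulated data.

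Since a cage is a litter, by the series' design text, the pools are paired. Pools of a cage deviated from their group means with correlations across genes of r = -0.18, 0.16 and 0.34 in cages 1, 2 and 3. Between cages, the wild-type pool of cage 2 had r = 0.40 with the Duoxa-/- pool of cage 1, above every same-cage value. With the Duoxa-/- pool of cage 3 it had r = -0.44. These correlations thus do not show that cage mates were more alike than other pools. The replicate block (cage) is given where it moved a count. The text names all members, up to 3 genes of each other list by smallest p and marker lists by their mean, with single markers beside a result chosen after their values were seen. The inducers Ifng and Il17a, and Ccr10 as the receptor of a pair, were named outside the rule of smallest p. Members and lists were chosen with earlier results of these data known. The alternatives were the block, other probe set rules, a filter on dim genes, renewed quantile normalization, array weights, stricter lists and leaving out pools or cages. The interaction with cage 1 and the counts of members above 0 without pools were added after seeing the data.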

Additional observations from a re-analysis of the deposited data

Results flagged for a closer look

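For 7 members the genotype difference of cage 1 had the opposite sign to those of cages 2 and 3, with at least 0.1 in each cage, and a test of the difference between cages had an unadjusted limma p under 0.05. The difference in cage 1 exceeded the mean of the others by 2.10 for Cxcl9, 1.90 for Cxcl10, 1.73 for Ccl5, 1.23 for Ccr9, 0.677 for Ccl22, 0.536 for Ccr7 and 0.505 for Ccl4. None passed adjustment over all genes, and limma adjusted p values ran from 0.104 for Cxcl9 to 0.476 for Ccr7. The contrast was chosen after seeing the data. Each cage gave 1 pool per genotype, so the spread comes from cages 2 and 3 and from limma's pooling over genes. Limma's array weights were lowest for the wild-type pool of cage 1, at 0.548, and highest for the Duoxa-/- pool of that cage, at 1.83. Groups of 3 pools were too small to test for single outlying samples.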

How the results depend on the processing

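Under every alternative run 0 members passed by genotype at a limma adjusted p under 0.05, and with the replicate block 0 genes and 0 members passed, with the same median of 0.10. The direction of 11 members, Ccl20 and Cxcr3 among them, held in all settings. With all probe sets of a gene averaged, the epithelial minus leukocyte median moved from 0.14 to 0.23, and Ccl6 and Cxcl12 turned to -0.0042 and -0.021. With strict lists the epithelial median moved from 0.19 to 0.086. Without probe sets ending in _x_at or _s_at Ccr9 was at -0.021, after quantile normalization Ccl3 was at 0.0088, and with array weights Cx3cl1 was at 0.013. With dim genes left out the leukocyte median turned from 0.06 to -0.083. The 2 genes that passed between cages became 0 with averaged probe sets, with dim genes left out and after quantile normalization. The cause was not tested.

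Leaving out pools or cages gave 0 to 1 genes by genotype (Duoxa2, without the wild-type pool of cage 3 or without cage 3), 0 to 53 genes between cages and 0 to 1 members between cages (Cxcl9, when the Duoxa-/- pool of cage 1 was out, limma adjusted p 0.0379). Medians ranged from -0.021 to 0.22 for all members, 0.034 to 0.25 for epithelial, -0.034 to 0.14 for leukocyte and 0.019 to 0.33 for stromal and follicle chemokines, -0.017 to 0.29 for receptors and 0.023 to 0.18 for epithelial minus leukocyte. The differences of 22 members crossed 0: Ccl11 -0.0052 to 0.46, Ccl17 -0.083 to 0.30, Ccl2 -0.099 to 0.30, Ccl22 -0.31 to 0.11, Ccl24 -0.095 to 0.39, Ccl25 -0.064 to 0.0099, Ccl28 -0.011 to 0.36, Ccl3 -0.12 to 0.13, Ccl5 -0.93 to 0.13, Ccl6 -0.019 to 0.12, Ccl8 -0.048 to 0.42, Ccr7 -0.31 to 0.059, Ccr9 -0.33 to 0.37, Cx3cl1 -0.20 to 0.063, Cxcl1 -0.021 to 0.11, Cxcl10 -0.32 to 0.72, Cxcl13 -0.042 to 0.46, Cxcl14 -0.034 to 0.22, Cxcl2 -0.053 to 0.22, Cxcl9 -0.54 to 0.57, Cxcr4 -0.27 to 0.014 and Cxcr6 -0.017 to 0.33. With 3 arrays a genotype and no detection calls, small differences of dim genes could not be told from noise.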

Other observations

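Chemokine genes lie in clusters, and 21 members fall into 6 groups of neighbours less than 500 kb apart in the RefSeq annotation of GRCm38.p6. The monocyte and eosinophil attractants Ccl2, Ccl7, Ccl8 and Ccl11 form a group with a median difference of 0.15 and cage medians of 0.12, 0.35 and -0.10, so that it was highest in cage 2. The neighbours Ccl3, Ccl4, Ccl5, Ccl6 and Ccl9 had a median of -0.12 and cage medians of 0.13, -0.36 and -0.06. The neutrophil attractants Cxcl1, Cxcl2 and Cxcl5 had cage medians of 0.26, 0.16 and -0.09. In cages 2 and 3 these medians are the values of the Cxcl1 probe set used. The other probe sets of Cxcl1 differed by 0.16 and 0.28 in cage 2 and by 0.34 and 0.07 in cage 3. Ccl17, Ccl22 and Cx3cl1, which attract different cells, were together highest in cage 2 and lowest in cage 3 in both genotypes, with mean levels of 0.25 and -0.27 relative to their mean over the arrays. The receptor group Ccr1, Ccr2, Ccr9 and Cxcr6 had cage medians of 0.44, 0.03 and 0.05.

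Gut homing adhesion genes, which let T cells dock and settle, showed the cage pattern of Ccr9. Of 10 genes 9 were measured, 3 with a difference above 0, and the cage medians were 0.35, -0.29 and -0.09. Itgb7, the integrin chain that binds the gut addressin, differed by 0.06, -0.54 and -0.14 in cages 1, 2 and 3.

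The cytokine Il17a, an inducer of neutrophil attractants and Ccl20, differed by 1.13, -0.0070 and 0.21 in cages 1, 2 and 3. The 14 measured inducers had cage medians of 0.49, 0.02 and -0.04.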
